A study of Bos taurus with 30 samples.

Results

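AXIN2 (ENSBTAG00000030162, axin 2) and LEF1 (ENSBTAG00000006844, lymphoid enhancer binding factor 1) are Wnt pathway genes, and they are 2 of the 27607 genes counted in peripheral white blood cells (PWBCs) of cattle. They were chosen because their transcript abundance differed between jugular blood processed at 24 h and at 1 h, so that difference is described here and not tested. On the ARS-UCD1.2 assembly AXIN2 lies on the reverse strand of chromosome 19 from 62212833 to 62240091, and LEF1 lies on the forward strand of chromosome 6 from 17083864 to 17200183. Both are annotated as protein coding, with transcripts of 3727 and 2589 bases.

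The PWBCs came from 5 crossbred Angus x Simmental heifers just over a year of age, all in estrus after synchronization with GnRH, a progesterone insert and prostaglandin, so that there was no group without these agents. Blood was drawn into EDTA tubes, and the cells were the buffy coat after lysis of red cells, which holds every class of white cell together. Every heifer gave a coccygeal vein (tail) tube and a jugular vein (neck) tube processed at 1 h, jugular tubes kept cold for 3, 6 and 8 h, and a jugular tube kept cold for 24 h. The groups are therefore coccygeal 1 h (n = 5), jugular 1 h (n = 5), jugular 3-8 h (n = 15, with 3 libraries of each heifer) and jugular 24 h (n = 5). The 3-8 h libraries are kept together because the study's supplementary code gives neither storage time nor heifer for their columns of counts. The other libraries are named by heifers A to E. Each library is a separate tube, and libraries of a heifer are not independent of each other.

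Wnt ligands bind Frizzled receptors and LRP co-receptors on the cell surface. Without a ligand, a complex built on an axin scaffold marks beta-catenin for destruction, and with a ligand beta-catenin reaches the nucleus and binds TCF and LEF transcription factors. AXIN2 is a scaffold of that destruction complex and is itself a usual target of the pathway, so it acts as a feedback inhibitor, whereas LEF1 is one of the DNA-binding factors at the end of the pathway. LEF1 and its relative TCF7 are known in blood for their part in T cell development and in naive T cells.

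Libraries held between 12412619 and 19492274 counts, and levels are given as CPM, the counts of a gene scaled to a common library total. A limit of 3 counts was worth between 0.154 and 0.242 CPM. AXIN2 was counted 51 times in its lowest library and LEF1 804 times, far above this limit. PWBCs hold T, B and monocytic cells, and the markers CD4, CD79A and CD14 were each counted in every one of the 30 libraries, at no less than 111, 439 and 31.3 CPM. The symbols of platelet markers (0 of 6) and red cell markers (0 of 7) could not be matched to identifiers, so these cells were not checked. A library of the 3-8 h group stood farthest from the rest, with a mean Spearman correlation of 0.969 with the other libraries over all genes tested.

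AXIN2 was present at a low level that varied among heifers. In coccygeal blood at 1 h it was at 20.1, 26.4, 19.5, 10.6 and 30.1 CPM in heifers A to E. In jugular blood at 1 h it was at 10.4, 18.9, 20.0, 11.4 and 29.8 CPM in the same order. At both sites heifer E was highest, and heifer D was lowest or next to lowest, so that the jugular libraries spanned a 2.86-fold range at the same processing time. Over 3-8 h of storage AXIN2 ranged from 7.14 to 30.9 CPM with a median of 13.3 CPM, and at 24 h it was at 3.10, 8.68, 7.47, 5.68 and 12.9 CPM in heifers A to E. The 24 h libraries overlapped the jugular 1 h libraries only through heifer E, whose 24 h value lay above the 1 h values of heifers A and D.

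LEF1 followed the same order of groups at a higher level. It was at 214, 217, 175, 121 and 214 CPM in coccygeal blood of heifers A to E. In jugular blood at 1 h it was at 129, 135, 201, 113 and 194 CPM. Heifers A and B were thus among the highest in coccygeal blood and in the lower part of the jugular range, while the levels of heifers C, D and E differed less between the sites. LEF1 ranged from 87.3 to 211 CPM over 3-8 h with a median of 134 CPM, and it was at 48.9, 72.8, 106, 73.4 and 123 CPM at 24 h. Of the 5 libraries at 24 h, 4 were below the lowest jugular 1 h library, for LEF1 as for AXIN2.

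**Figure D1:**
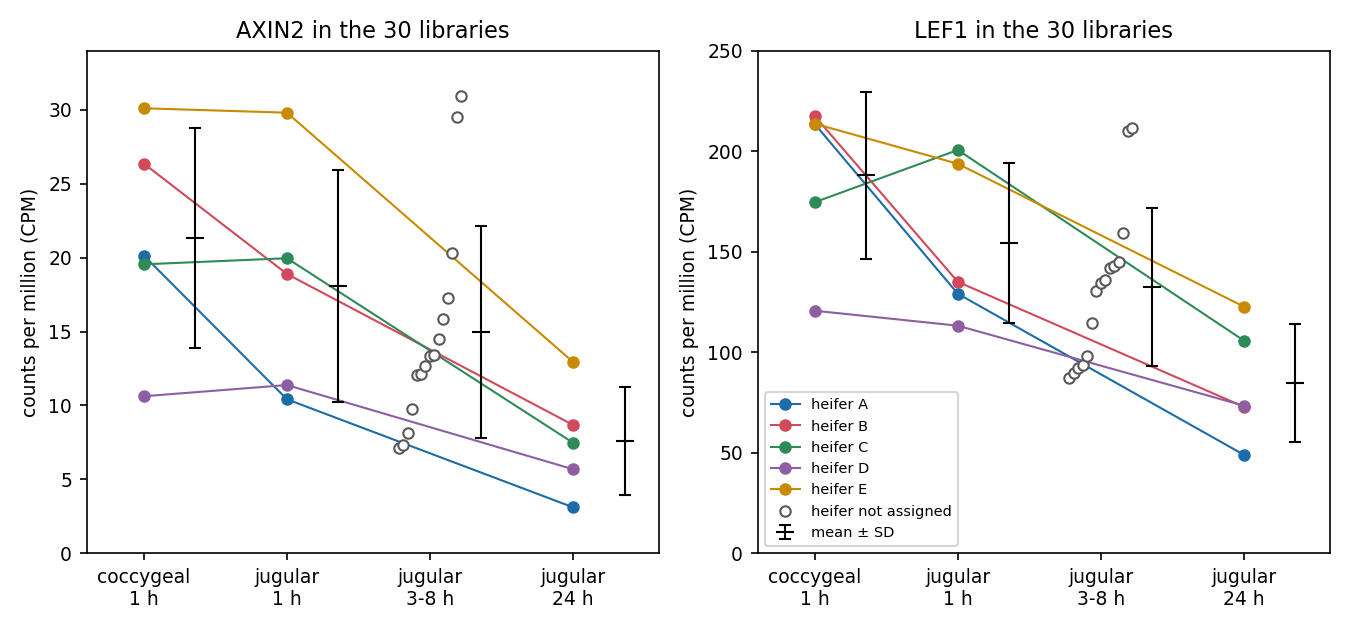
CPM of AXIN2 (left) and LEF1 (right) in each library, with filled points joined for heifers A to E, open points for the 15 libraries of the 3-8 h group in order of value, and black bars for the group mean ± SD. AXIN2 had a mean of 18.1 CPM at 1 h and 7.57 CPM at 24 h in jugular blood, and LEF1 had means of 154 and 84.7 CPM, with every joined line falling between those times.

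Group means of AXIN2 were 21.4 ± 7.44 CPM (SD, n = 5) for coccygeal 1 h, 18.1 ± 7.83 CPM (SD, n = 5) for jugular 1 h, 14.9 ± 7.18 CPM (SD, n = 15) for 3-8 h and 7.57 ± 3.66 CPM (SD, n = 5) for 24 h. For LEF1 the means were 188 ± 41.5, 154 ± 40.0, 132 ± 39.5 and 84.7 ± 29.3 CPM in the same order. The order of the 4 means was the same for both genes, but no neighbours in that order were called different by the tests given below, and each step between neighbours at 1 h and 3-8 h was smaller than the SD of either group. Per length of transcript (FPKM), LEF1 was the more abundant in all 30 libraries. At jugular 1 h its level was 59.6 ± 15.5 FPKM (SD, n = 5) against 4.85 ± 2.10 FPKM (SD, n = 5) for AXIN2. The ratio of the FPKM levels of LEF1 to AXIN2 had a median of 12.9 at coccygeal 1 h, 14.3 at jugular 1 h, 14.1 at 3-8 h and 18.6 at 24 h, with ranges that overlapped among all groups.

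Whether the vein mattered was asked with the paired libraries at 1 h. The jugular libraries had a part in choosing the genes, so this comparison is not independent of the choice. The coccygeal level of AXIN2 exceeded the jugular level by 0.27 on the log2 scale in edgeR, and that of LEF1 by 0.29. The excess came mainly from heifers A and B, in which the log2 differences were 0.94 and 0.48 for AXIN2 and 0.73 and 0.69 for LEF1. In heifers C, D and E they lay between -0.10 and 0.01 for AXIN2 and between -0.20 and 0.14 for LEF1. Neither gene passed the test (edgeR and DESeq2 adjusted p = 1.00), and the 95% interval of the log2 difference in DESeq2 was -0.03 to 0.56 for AXIN2 and 0.08 to 0.51 for LEF1. A gene was called when its adjusted p was under 0.05 in both edgeR and DESeq2 and its edgeR log2 fold change exceeded 0.5 in size. By this rule 0 of 14018 genes tested (0%) were called between veins, also by each tool alone, and 278 genes had an unadjusted p under 0.05 in edgeR and 101 in DESeq2. TCF7 and CD4, a surface marker of helper T cells, were also higher in coccygeal blood of heifers A and B, by 0.40 and 0.44 for TCF7 and by 0.44 and 0.41 for CD4 on the log2 scale. In the same heifers CD79A, part of the B cell receptor, differed by 0.11 and -0.05, the monocyte markers CD14 and VCAN by 0.08 and -0.07 in heifer A and by -0.92 and -0.88 in heifer B, and of the cytotoxic cell markers GZMB by -0.57 and -1.09, PRF1 by -0.05 and -0.14, and CRTAM by 0.61 and 0.00. The part of cell makeup in the difference between veins was not tested.

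Storage for 3-8 h was compared with both groups processed at 1 h. Of these, the jugular 1 h libraries had a part in choosing the genes, so the comparison with them is not independent of the choice. Against jugular 1 h, the log2 fold change in edgeR was -0.27 for AXIN2 (DESeq2 95% interval -0.88 to 0.32) and -0.22 for LEF1 (-0.61 to 0.17), and neither was called (edgeR and DESeq2 adjusted p = 1.00). With a jugular 1 h library left out, the value ranged from -0.42 to -0.02 (without heifer E) for AXIN2 and from -0.31 to -0.11 (without heifer C) for LEF1. Against coccygeal 1 h, whose libraries had no part in choosing the genes, it was -0.52 for AXIN2 (-1.12 to 0.08) and -0.51 for LEF1 (-0.90 to -0.12), again not called (edgeR and DESeq2 adjusted p = 1.00). In that comparison the vein differed along with the storage time, and the effects of vein and storage cannot be told apart. The unadjusted p of LEF1 against coccygeal 1 h was 0.017 in edgeR and 0.010 in DESeq2, and in edgeR it ranked 63rd of the genes tested. In both comparisons 0 of 14018 genes (0%) were called, with DESeq2 alone calling 0 genes against jugular 1 h and 1 gene against coccygeal 1 h, and edgeR alone calling 0 in both. An unadjusted p under 0.05 was found in edgeR for 187 genes against jugular 1 h and for 204 against coccygeal 1 h, and in DESeq2 for 223 and 245. Of the 15 libraries at 3-8 h, 4 lay below every jugular 1 h library for AXIN2 and 5 for LEF1. These fits did not use the heifer, and their standard errors (0.31 for AXIN2 and 0.20 for LEF1 against jugular 1 h in DESeq2) were larger than those of the paired vein fit (0.15 and 0.11). They also took the 15 libraries at 3-8 h as independent, although each heifer gave 3 of them, so their p-values and intervals are not exact.

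Between 3-8 h and 24 h the differences were larger, without either gene being called in a fit that did not use the heifer. Differences within heifers were not tested, because the 3-8 h columns were not assigned to heifers. The log2 fold change of 24 h over 3-8 h was -0.99 for AXIN2 (edgeR adjusted p = 0.24, DESeq2 adjusted p = 0.072, 95% interval -1.59 to -0.38). For LEF1 it was -0.65 (edgeR adjusted p = 0.21, DESeq2 adjusted p = 0.063, 95% interval -1.04 to -0.26). The 24 h libraries are the same that had a part in choosing the genes, so this is not independent of the choice. Taken over all heifers together, the groups overlapped, with 8 of the 15 libraries at 3-8 h above the highest 24 h library for AXIN2 and 9 for LEF1. Over the alternatives tried, the adjusted p ranged from 0.18 to 0.67 in edgeR and from 0.020 to 0.40 in DESeq2 for AXIN2, and from 0.15 to 0.66 and 0.018 to 0.40 for LEF1. In the same comparison 39 of 14018 genes (0.278%) were called. Without the 24 h library of heifer A, in which both genes were lowest, the log2 fold change was -0.79 for AXIN2 and -0.50 for LEF1, and 22 genes were called.

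**Figure D2:**
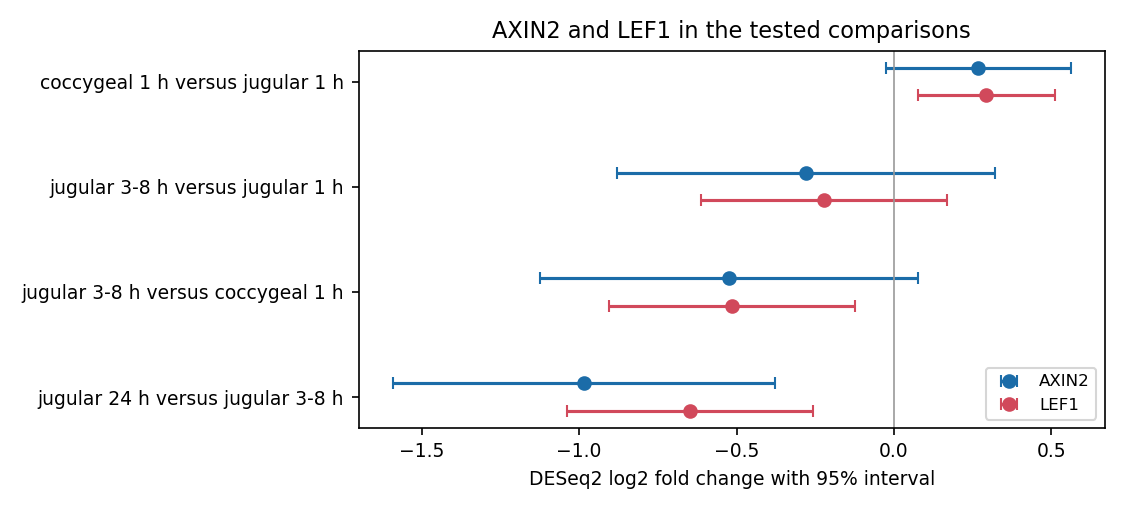
Log2 fold changes of AXIN2 (blue) and LEF1 (red) in DESeq2 with their 95% intervals, for the comparisons other than the one that chose the genes. LEF1 in coccygeal against jugular blood lay at 0.29 and both genes at 24 h against 3-8 h lay below 0, but no gene of these passed the adjusted threshold of both tools.

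The difference between 24 h and 1 h of jugular blood chose the genes and is given as a description. AXIN2 was lower at 24 h in 5 of 5 heifers, with log2 differences of -1.71, -1.11, -1.40, -0.99 and -1.20 in heifers A to E. LEF1 was also lower in 5 of 5, with differences of -1.40, -0.89, -0.92, -0.62 and -0.66. The difference was deepest in heifer A for both genes and shallowest in heifer D, and in each heifer it was deeper for AXIN2 than for LEF1. The mean level at 24 h was 41.9% of that at 1 h for AXIN2 and 54.9% for LEF1. With the coccygeal libraries as the baseline, the 24 h level was again lower in 5 of 5 heifers, by log2 differences from -2.65 to -0.89 for AXIN2 and from -2.12 to -0.72 for LEF1. Between jugular 24 h and jugular 1 h, 361 of 14018 genes (2.58%) were called, 158 of them lower (1.13%) and 203 higher (1.45%). In bulk RNA, fewer cells of a type and less RNA per cell cannot be told apart.

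**Figure D3:**
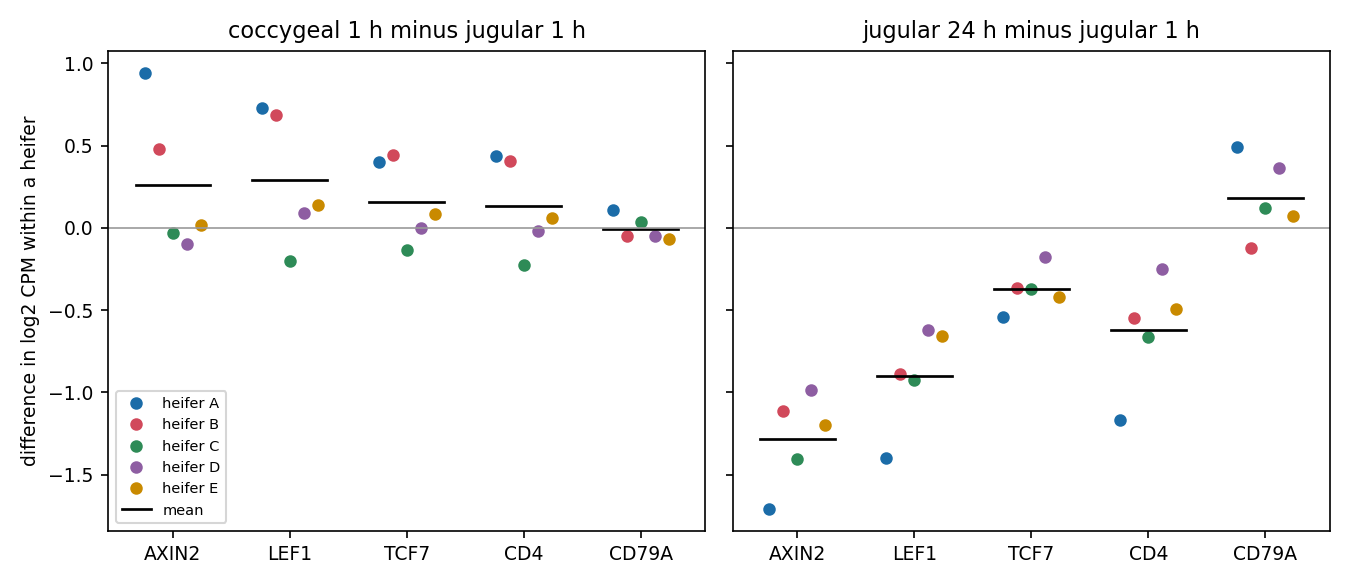
Differences in log2 CPM within heifers A to E (points) and their means (lines), for coccygeal minus jugular blood at 1 h (left) and jugular blood at 24 h minus 1 h (right). At 24 h all 5 points of AXIN2, LEF1, TCF7 and CD4 lay below 0, with means of -1.28 for AXIN2 and -0.90 for LEF1, whereas CD79A had 4 points above 0 and a mean of 0.18.

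Of the other Wnt pathway genes that could be examined, TLE1 was called at 24 h. Of 83 symbols listed for the Wnt pathway, 12 could be matched to identifiers, and all 12 passed the filter on low counts. At 24 h against 1 h, 1 of the 12 was called lower and 0 higher, beside 1.13% and 1.45% of all genes tested, and their median log2 fold change was -0.19 beside a median of 0.01 over all genes tested. The gene called was TLE1, a co-repressor that binds TCF and LEF factors, which fell by 0.56 on the log2 scale (edgeR adjusted p = 0.018, DESeq2 adjusted p = 0.0041) and was lower in 5 of 5 heifers. Without heifer A the fold change of TLE1 was -0.41 and the call was lost (DESeq2 adjusted p = 0.073). TCF7, the close relative of LEF1, went from 279 ± 64.2 to 214 ± 47.1 CPM (SD, n = 5 each), lower in 5 of 5 heifers. Its log2 fold change of -0.38 had adjusted p-values of 0.0068 in edgeR and 2.4e-05 in DESeq2 but did not reach the size required. The co-repressor TLE4 differed by -0.21 (edgeR adjusted p = 0.039, DESeq2 adjusted p = 0.054) and TLE2 by 0.06.

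Upstream members were not called. Of the receptors, the Frizzled receptor FZD7 had a log2 fold change of -0.30 from a level of 1.92 CPM, and LGR4, a receptor for R-spondins, had 0.28. The co-receptor LRP6 had -0.50 (edgeR adjusted p = 0.026, DESeq2 adjusted p = 0.082). The study's lists of changed genes are the source of its name, so its direction is not independent evidence. In the cytoplasm DVL2, which relays the signal from Frizzled receptors, had 0.17, TNKS, a tankyrase that destabilises axin, had -0.16, and the kinase MAP3K7 had -0.04. In the nucleus BCL9, a beta-catenin co-activator, had -0.03 and the co-repressor CTBP2 had -0.22. No symbol of the 15 listed as feedback inhibitors and usual targets could be matched, so AXIN2 had no companion of its own class here. In the other 4 comparisons 0 of the 12 genes were called, where the share over all genes tested was at most 0.278%.

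**Figure D4:**
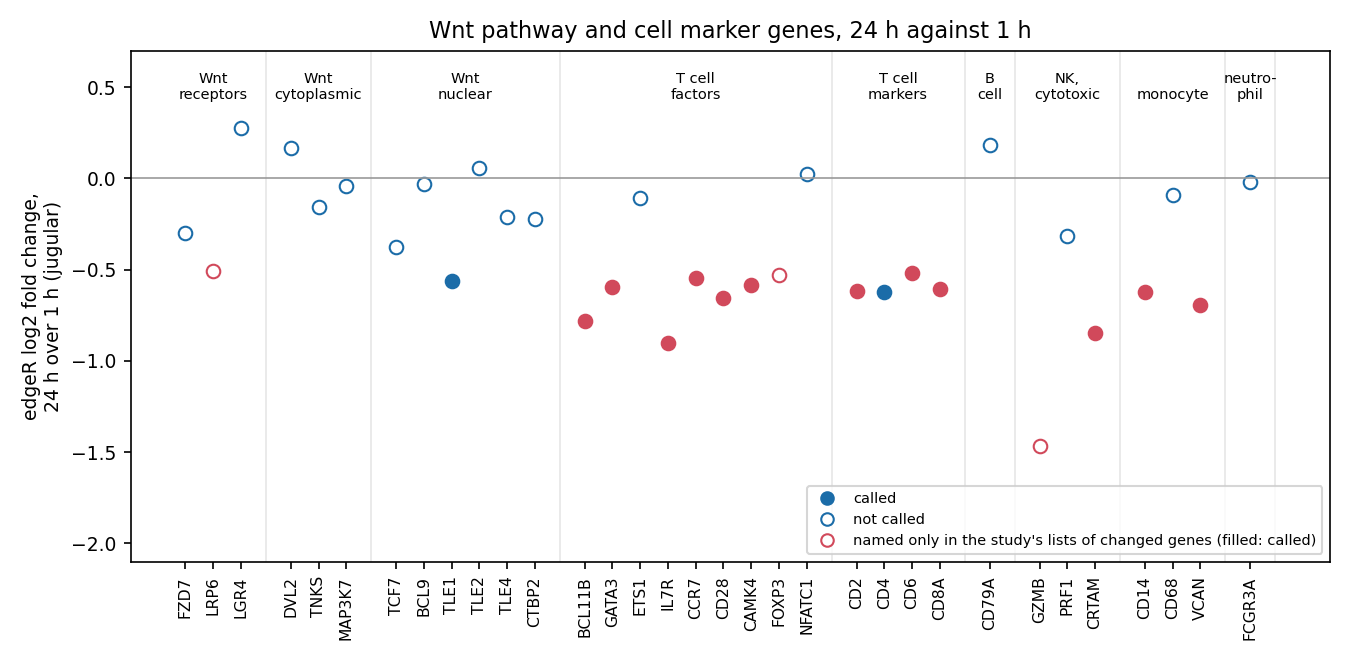
The edgeR log2 fold changes of 24 h over 1 h in jugular blood for the matched genes of the Wnt and blood cell lists, filled where called by both tools and red where the name came only from the study's lists of changed genes. TLE1 was the only filled point among the 12 Wnt genes, while the T cell genes included 10 filled points, such as CD4 at -0.62. CD14 at -0.62, VCAN at -0.69 and CRTAM at -0.85 were filled as well, and CD79A lay open at 0.18.

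CD4, the marker of helper T cells, was lower at 24 h, as were AXIN2 and LEF1. Of 13 matched genes on the lists of T cell factors and T cell markers, 10 were called lower and 0 higher, beside 1.13% of all genes tested called lower. The study's lists of changed genes gave the names of 10 of the 13, which were thus chosen on these samples, and this count is not independent evidence of direction. Among the other 3, CD4 fell by 0.62 (edgeR adjusted p = 0.015, DESeq2 adjusted p = 3.6e-07) and was lower in 5 of 5 heifers. The transcription factors ETS1 and NFATC1 had log2 fold changes of -0.11 and 0.02 and were not called. Among the genes named by the study, IL7R, the receptor of a T cell survival cytokine, had -0.90, and BCL11B, a T cell lineage factor, had -0.78. CD28 had -0.66, GATA3, a transcription factor of helper T cells, had -0.59, CAMK4 had -0.58 and CCR7 had -0.54. The surface markers CD2, CD8A and CD6 had -0.62, -0.60 and -0.52, and all of these were called. FOXP3, also named by the study, had -0.53 (edgeR adjusted p = 0.095, DESeq2 adjusted p = 0.20) and was not called. Without heifer A, 6 of the 13 genes were called, while the calls over all genes went from 361 to 156, and CD4, at -0.488, no longer reached the size required although its adjusted p stayed under 0.05 in both tools. With heifers B, C, D and E left out in turn, 8, 9, 9 and 9 of the 13 were called. Leaving out each heifer gave 156 to 396 calls over all genes. The call of CD2 was lost without heifer A, B, D or E, and that of CCR7 without heifer B or C. In the other 4 comparisons 0 of the 13 genes were called, where the share over all genes was 0% or 0.278%.

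The summed level of the 4 matched T cell markers of 12 (CD2, CD4, CD6 and CD8A) ranged from 443 to 514 CPM at jugular 1 h. It ranged from 305 to 521 CPM at 3-8 h and from 208 to 383 CPM at 24 h, so the 24 h libraries lay below all 1 h libraries. CD2, CD6 and CD8A were named only in the study's lists of changed genes, so this gap is not independent of that choice. In coccygeal blood it ranged from 453 to 576 CPM. None of the 4 was at 0 in any library. CD79A, the only matched marker of 7 for B cells, ranged from 439 to 559 CPM at jugular 1 h and from 477 to 696 CPM at 24 h and was not called (log2 fold change 0.18). The summed level of 3 matched markers of 7 for NK and cytotoxic cells ranged from 121 to 170 CPM at 1 h and from 69.9 to 153 CPM at 24 h. For 3 matched monocyte markers of 6 it ranged from 304 to 560.1 CPM and from 199 to 353 CPM. FCGR3A, the only matched symbol of the 8 on the neutrophil list, had a log2 fold change of -0.02, and neutrophils were not checked beyond this gene. Genes called lower at 24 h were also found on the monocyte and cytotoxic cell lists, but those called had been chosen on these samples. Of the monocyte markers, the lipopolysaccharide co-receptor CD14 fell by 0.62 (edgeR adjusted p = 0.012, DESeq2 adjusted p = 6.0e-06) and VCAN fell by 0.69 (edgeR adjusted p = 0.0034, DESeq2 adjusted p = 1.4e-11), while CD68, at -0.09, was not called. Of the cytotoxic cell markers, the adhesion molecule CRTAM fell by 0.85 (edgeR adjusted p = 0.0055, DESeq2 adjusted p = 3.7e-05), and GZMB at -1.47 (edgeR adjusted p = 0.18, DESeq2 adjusted p = 0.053, lower in 4 of 5 heifers) and PRF1 at -0.32 (edgeR adjusted p = 0.020, DESeq2 adjusted p = 0.0049, lower in 5 of 5) were not called. The names of CD14, VCAN, CRTAM and GZMB, too, came only from the study's lists of changed genes. Their direction, and that of the sums that hold them, is therefore not independent evidence. PRF1, CD68, CD79A and FCGR3A were not named in that way, and none of them was called. The part of a change in cell makeup in the values of AXIN2 and LEF1 was not tested.

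Ratios within a library, which do not depend on its depth, set both genes against CD4. At jugular 1 h there were 0.52, 0.58, 0.72, 0.50 and 0.65 LEF1 fragments for each CD4 fragment in heifers A to E, and at 24 h there were 0.44, 0.45, 0.60, 0.39 and 0.58. The ratio was lower at 24 h in 5 of 5 heifers. For AXIN2 the ratio to CD4 had a mean of 0.069 ± 0.023 (SD, n = 5) at 1 h and 0.043 ± 0.014 (SD, n = 5) at 24 h, and it too was lower in 5 of 5. Both ratios to TCF7 were lower at 24 h in 5 of 5 heifers as well, that of LEF1 with a mean of 0.56 ± 0.10 at 1 h and 0.40 ± 0.13 at 24 h (SD, n = 5 each). At 3-8 h the mean ratio of LEF1 to CD4 was 0.56 ± 0.080 (SD, n = 15), between those of jugular 1 h and 24 h. Between veins, the ratio of LEF1 to CD4 was higher in coccygeal blood in 5 of 5 heifers, with a mean of 0.66 ± 0.075 against 0.59 ± 0.092 (SD, n = 5 each), while that of AXIN2 to CD4 was higher in 3 of 5. These ratios were chosen after the values of the genes were seen and carry no test. AXIN2 and LEF1 were chosen on their difference between jugular 24 h and 1 h, so the lower ratios at 24 h are not independent of that choice.

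AXIN2 and LEF1 varied together from library to library. Over all 30 libraries Pearson's r of their log2 CPM was 0.92 and Spearman's rho 0.89, and r was 0.88 without the 2 libraries farthest from the AXIN2 median. With each group's mean removed r was 0.86 (n = 30), and within the 3-8 h group alone it was 0.85 (n = 15), or 0.69 without the 2 farthest. These correlations are descriptions, since the libraries come from 5 heifers and share their depth scaling.

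**Figure D5:**
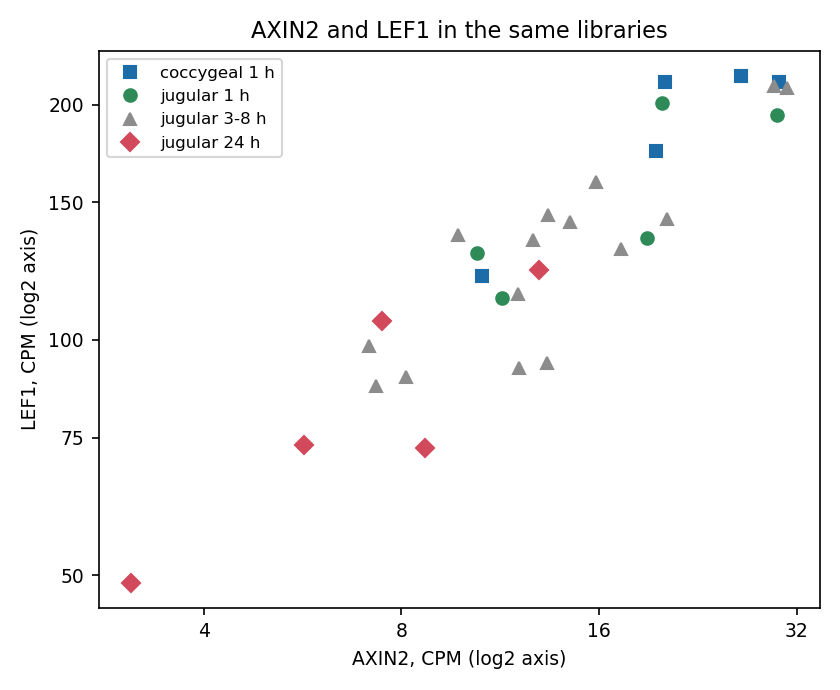
LEF1 against AXIN2 in CPM on log2 axes, with each of the 30 libraries as a point marked by its group. The libraries lay along a rising band (r = 0.92) with the lowest point a 24 h library (heifer A) and the groups overlapping along the band.

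The named genes most like each of them over the 30 libraries were taken from 1737 candidates with a name among 14017 genes. The libraries include those of the 24 h difference that chose the members, and CAMK4, BCL11B, CD28 and CCR7 were named only in the study's lists of changed genes. For AXIN2 they were CAMK4, a calcium-dependent kinase of T cells (r = 0.92), LEF1 (0.92), PIANP (0.90), BCL11B (0.89) and STEAP2, a metalloreductase (0.88). These also held the first 5 ranks among all 14017 genes, named or not. For LEF1 they were CD4 (r = 0.94), which ranked first among all genes, CD28, a T cell co-stimulatory receptor (0.93), AXIN2 (0.92), PIANP (0.91) and CCR7, the homing receptor of naive T cells (0.89). The median r over all genes was 0.03 with either gene, and 46 genes exceeded an r of 0.8 with AXIN2 and 45 with LEF1. TCF7 had an r of 0.69 with AXIN2 and 0.72 with LEF1, ranking 171st and 127th, and CD79A had -0.28 and -0.36, which became 0.17 and 0.01 without the 24 h group. Without the 24 h group (n = 25), the ranks among all genes shifted. For AXIN2, CCR7 came first (r = 0.90), CAMK4 3rd (0.89), LEF1 4th (0.87), BCL11B 5th (0.87), PIANP 9th (0.84) and STEAP2 10th (0.83). For LEF1, CD4 came first (0.92), CCR7 3rd (0.91), AXIN2 9th (0.87), CD28 11th (0.87) and PIANP 12th (0.86).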

How the data were processed

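Libraries of polyadenylated RNA were made with a stranded kit and sequenced as read pairs. The authors trimmed adapters with cutadapt 2.8, aligned the pairs to ARS-UCD1.2 with HISAT2 2.2.0, discarded duplicates, and assigned fragments to Ensembl genes with featureCounts (Subread 2.0.1). The authors deposited these counts without normalization. The counting did not use strand, so fragments of overlapping or antisense genes could not be told apart. Columns were joined to group and heifer through the study's supplementary code, and the 15 columns it does not name were taken as the 3-8 h group by elimination.

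A gene was tested when at least 5 of the 30 libraries exceeded 1 CPM, which left 14018. In R 4.3.3, edgeR 4.0.16 (quasi-likelihood test, robust, library size scaling) and DESeq2 1.42.0 (Wald test) were run, with Benjamini-Hochberg adjustment over all genes tested and the study's rule for calls. The vein and 24 h against 1 h comparisons were fitted on their own 10 libraries with the heifer as a block. Deviations from group means correlated within each heifer (0.44 or more between veins and 0.53 or more between times) and less between heifers (at most 0.14). Comparisons with the 3-8 h group came from a fit of all 30 libraries without a block. That fit took libraries of the same heifer as independent, so its p-values and intervals are not exact. Differences within heifers used log2 CPM with a prior count of 2, and FPKM is CPM over transcript length in kilobases. The fits were tested on simulated data. For the fit without a block these data held no differences between heifers, so the effect of repeated libraries of a heifer was not tested.

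The 2 genes and the lists were chosen with earlier results of these data known, and a gene of the T cell lists and a gene of the monocyte list are not reported here. Named are the members, the matched genes of the lists, and the 5 named genes with the highest r to each member. Gene names and positions came from the study's supplementary tables, held in part. Alternatives were TMM scaling, each tool alone, no filter or a filter over 15 libraries, estimation that is not robust, and no replicate block. Each heifer, or each library with a named heifer, was also left out. None of the 15 libraries without a named heifer was left out, including the library farthest from the rest. Further alternatives were other scalings of CPM, Spearman's rho, and r without the 24 h group. No sequence of this build was used here, so promoter motifs were not searched. The limit of 3 counts covers counting error only.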

Additional observations from a re-analysis of the deposited data

Results flagged for a closer look

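The ratio of AXIN2 to TCF7 fragments had a library far from the others in both groups processed at 1 h. In jugular blood it was 0.108 in heifer E and between 0.0415 and 0.0602 in heifers A to D. In coccygeal blood it was 0.103 in heifer E and between 0.0563 and 0.0609 in the others. Heifer E was also highest at 24 h, at 0.0625, where the gap was too small to be marked. The 2 marks came from 39 groups of 5 values that were examined for such a gap in AXIN2, LEF1, TCF7, CD4 and their ratios. Chance gives such a gap in about 1 in 20 groups, and both marks come from the same heifer.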

How the results depend on the processing

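AXIN2 and LEF1 kept their direction in every comparison under every alternative tried, and neither was called in a tested comparison under any of them. At 24 h against 1 h the fit without the heifer as a replicate block called 30 genes in place of 361, with log2 fold changes of -1.26 for AXIN2 and -0.87 for LEF1, and 0 of the 13 T cell and 12 Wnt list genes. Leaving out each heifer gave 156 to 396 calls, with 156 without heifer A and 237 without heifer B. It gave -1.34 to -1.19 for AXIN2 and -0.96 to -0.78 for LEF1. For 24 h against 3-8 h, DESeq2 alone called 60 genes in place of 39, and leaving out each 24 h library gave 22 to 40. Against coccygeal 1 h, DESeq2 alone called 1 gene. Between veins AXIN2 ranged from 0.10 (without heifer A) to 0.35 and LEF1 from 0.18 to 0.41 with a heifer left out. Against jugular 1 h, the 3-8 h value was taken with each jugular 1 h library left out. It ranged from -0.42 to -0.02 (without heifer E) for AXIN2 and from -0.31 to -0.11 (without heifer C) for LEF1. The cause of these shifts was not tested. No paired analysis was run for comparisons with the 3-8 h group, because the study's supplementary code does not name the heifers of its columns. The order of the columns was not used to assign heifers. The mean r of the 5 genes most like AXIN2 was 0.90, 0.88 by Spearman and 0.86 without the 24 h group. Of the 2 members, AXIN2 at 24 h was measured with the fewest counts, 51 to 164 per library.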
